A study of Homo sapiens with 8 samples.

Results

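The 40 genes described here encode proteins of mitosis: the cyclins and kinases that start it, the spindle and kinetochore proteins that carry it out, the spindle checkpoint, and the proteins of anaphase and cytokinesis. They were taken by symbol from the series' table of gene counts and all 40 were found among its 60710 genes. The series compared A375 cells, a human melanoma cell line, left untreated (NT) with the same cells given 50 ng/mL human recombinant TNF for 24 hours. Each group held 4 RNA-seq libraries, from 4 independent experiments that each gave 1 NT and 1 TNF library on the same date, numbered here as replicates 1 to 4. The dates of the NT libraries differ between the deposited files: 0 of 4 NT files of single samples hold the library that the table of the whole series gives for their date, while 4 of 4 TNF files do. The numbers follow the table, and the member results that depend on the pairing are also given with the dates of the single-sample files. All libraries come from a single cell line in culture, with no other treatment or genetic change named in the labels.

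Most genes of mitosis are transcribed in a wave that begins in S phase and peaks in G2 and M. In G0 and early G1 they are silenced by the DREAM complex, and later they are activated by MYBL2 bound to the MuvB core and by FOXM1, largely through a promoter element called the cell cycle genes homology region (CHR) and neighbouring CCAAT boxes, which bind NF-Y. Genes of DNA replication peak earlier, at the G1/S boundary, mostly under E2F factors. The RNA level of mitosis genes in bulk is therefore used as a readout of how many cells of a culture are in G2 and M, although fewer such cells and less RNA per cell cannot be told apart in these libraries.

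The total count per library ran from 30989787 to 44373296, and 16186 genes passed the filter on low counts, all 40 mitosis genes among them. The 6 genes listed as a check of the TNF response (NFKBIA, TNFAIP3, ICAM1, BIRC3, CCL2 and CXCL8) were all higher in TNF-treated cells, with log2 fold changes from 3.03 to 7.90. They were chosen with earlier results of these data known, so this is no independent check. Of 9 melanoma markers 7 passed the filter: NGFR and AXL were higher with TNF (log2 fold changes 0.96 and 0.57), S100B was lower (-2.50), and SOX10 (953 to 1084 CPM, library-scaled counts with TMM factors, in NT and 1094 to 1296 in TNF), MITF, MLANA and PMEL did not pass the test. The 2 ranges of SOX10 did not overlap. When the model held the experiment date as a block, 3 markers were higher and 1 was lower. MLANA and PMEL stayed under 1 CPM in every library. Of 8 markers of other cell types, only PECAM1 passed the filter, at 0.189 to 0.449 CPM in NT and 1.75 to 3.03 CPM in TNF. In 3 libraries, NT replicate 2 (0.519%), NT replicate 4 (0.490%) and TNF replicate 4 (0.417%), the share of counts from ribosomal, 7SK and 7SL genes was higher than in the other 5 (0.0695% to 0.107%). Below, these 3 are called the libraries with more ribosomal RNA or a higher ribosomal share. The share is a sum, in which ribosomal RNA was not told apart from 7SK and 7SL.

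None of the 40 mitosis genes passed the test between TNF and NT. By edgeR's quasi-likelihood test, 0 were higher and 0 were lower at an adjusted p under 0.05, where 14.5% of all genes tested were higher and 9.9% were lower. None had an unadjusted p under 0.05 either, against 35.2% of all genes, and 0 members were called by DESeq2 (15.6% of all genes higher, 12.2% lower) or limma voom (14.4% and 10.1%). With the experiment date as a block, 7 members had an unadjusted p under 0.05, against 47.9% of all genes, and UBE2C and MAD2L1 passed the test. With the dates of the single-sample files the block gave 0 members at either limit. Under those dates, libraries of a date deviated in opposite directions (correlations -0.071, -0.099, -0.40 and -0.31 across genes). Under the table's dates the correlations were 0.35, 0.17, 0.24 and 0.46. A block on libraries that deviate in opposite directions can widen the error, so calls lost under it, here and below, are not decided by it. The range of the NT libraries overlapped that of the TNF libraries in 40 of 40 members, whereas the groups did not overlap in 27.3% of all genes. The log2 fold changes ran from -0.19 in MAD2L1 to 0.68 in UBE2C, with AURKB next to the top at 0.28, and their median was 0.052 against -0.0035 over all genes tested.

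These values also bound how large a difference could have been missed. In the fit without a block, the 95% interval of the fold change lay within 2-fold of no change in 39 members, all but UBE2C. It lay within 1.5-fold in 32. These bounds depended on the fit. With the table's dates as a block the interval of UBE2C ran from 0.35 to 0.89 on the log2 scale. That of CENPE widened, from -0.33 to 0.47 without the block to -0.69 to 0.85 with it, and so reached beyond 1.5-fold. The log2 fold change was positive in 28 members and negative in 12, a split that depended on the scaling. Upper-quartile factors and library totals alone moved the median of all genes by -0.058 and -0.083, and with this common shift the sign changed in 9 and 12 members. Over the 8 fits that each left out 1 library, the median of the members moved from -0.044 without TNF replicate 4 and -0.039 without NT replicate 2 to 0.20 without NT replicate 4, against 0.052 with all libraries.

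**Figure D1:**
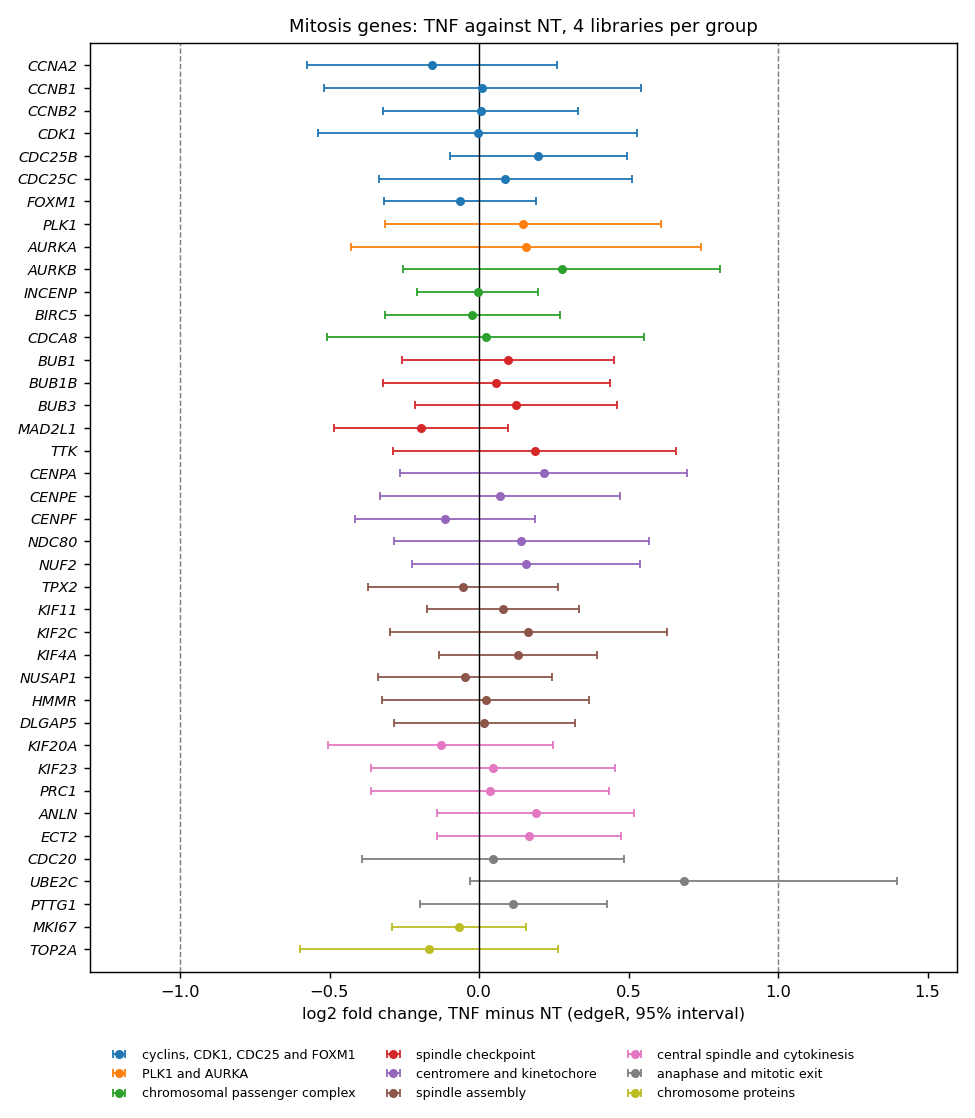
Log2 fold change (TNF minus NT) of each of the 40 mitosis genes, with its 95% interval from edgeR (n = 4 libraries per group), coloured by role. Dashed lines mark a 2-fold difference. Every interval spans 0, and the interval of UBE2C, from -0.029 to 1.40, alone crosses a dashed line.

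Entry into mitosis is driven by CDK1 bound to cyclins A and B, after CDC25 phosphatases remove its inhibitory phosphates. The 7 members of this group (CCNA2, CCNB1, CCNB2, CDK1, CDC25B, CDC25C and FOXM1) had log2 fold changes from -0.16 to 0.20. CCNB1, the main mitotic cyclin, was at 258, 219, 246 and 392 CPM in NT replicates 1 to 4 and at 205, 296, 219 and 404 CPM in TNF replicates 1 to 4. Replicate 4 held the highest CCNB1 level of both groups, and the other TNF libraries lay on both sides of the NT libraries. The log2 fold change of CCNB1 was 0.011 ± 0.24 (SE; 95% interval -0.52 to 0.54; adjusted p = 0.983, edgeR). CDK1 itself was at 65.3 ± 14.2 CPM in NT and 65.2 ± 24.5 CPM in TNF (SD, n = 4 each).

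CDC25B, which activates CDK1 and cyclin B at the centrosome, was higher with TNF at all 4 dates, from 265 to 376 CPM in NT to 319 to 463 CPM in TNF. Its log2 fold change of 0.20 ± 0.13 did not pass the test (adjusted p = 0.331, edgeR). With the table's dates as a block it came closer but did not pass either (adjusted p = 0.0577, edgeR). CCNA2, which encodes cyclin A2 and acts in S phase as well as in G2, was at 123, 97.4, 120.3 and 161 CPM in NT replicates 1 to 4 and at 102, 99.6, 91.9 and 157 CPM in TNF replicates 1 to 4. The groups overlapped, and the log2 fold change was -0.16 ± 0.19 (adjusted p = 0.611, edgeR). Without the 3 libraries with more ribosomal RNA, CCNA2 was lower in TNF by a log2 fold change of -0.32 (adjusted p = 0.0175, edgeR). That fit kept only NT replicates 1 and 3 and TNF replicates 1 to 3, and CCNA2 was called in 1 of 20 alternatives. FOXM1, the transcription factor of the late wave, had the smallest SE of this group, with a log2 fold change of -0.065 ± 0.11. The kinases PLK1 and AURKA, which act on centrosomes and on CDC25, had log2 fold changes of 0.15 ± 0.21 and 0.16 ± 0.26.

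The chromosomal passenger complex corrects faulty attachments of microtubules to kinetochores. Its kinase AURKB was at 84.3 ± 19.5 CPM in NT and 102 ± 36.5 CPM in TNF (SD, n = 4 each), and it was higher with TNF at all 4 dates, although the differences at replicates 1 and 3 were only 0.036 and 0.016 on the log2 scale. Its partners INCENP, BIRC5 (survivin) and CDCA8 (borealin) had log2 fold changes from -0.023 to 0.022. INCENP had the narrowest interval of the 40 members, -0.21 to 0.20 on the log2 scale, at 169 ± 17.4 CPM in NT and 169 ± 14.6 CPM in TNF.

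The spindle checkpoint holds anaphase back until every kinetochore is attached. BUB1, BUB1B, BUB3 and TTK, its kinases and scaffold proteins, had log2 fold changes from 0.058 to 0.19. MAD2L1, the checkpoint protein that binds CDC20, was at 75.7, 64.1, 69.1 and 87.8 CPM in NT replicates 1 to 4 and at 60.6, 63.9, 54.2 and 80.9 CPM in TNF replicates 1 to 4. It was the member that was lower with TNF at all 4 dates, with log2 differences of -0.32, -0.0064, -0.35 and -0.12 from replicate 1 to 4, so that replicate 2 showed almost no difference. The log2 fold change was -0.19 ± 0.13 (95% interval -0.48 to 0.098; adjusted p = 0.339, edgeR). When experiment date entered the model as a block, that is as a term for each date, the SE was 0.066 and MAD2L1 passed the test (log2 fold change -0.20, adjusted p = 0.0344, edgeR). It did not pass with the dates of the single-sample files (adjusted p = 0.416, edgeR).

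At the centromere and kinetochore, CENPA is the histone variant that marks the centromere, NDC80 and NUF2 bind microtubules, and CENPE and CENPF are large proteins of the outer layer. CENPA, NDC80 and NUF2 had log2 fold changes of 0.22 ± 0.22, 0.14 ± 0.19 and 0.16 ± 0.17. CENPE had the largest SE of all members once the dates were paired (0.28 on the log2 scale), and it was at 46.3, 32.6, 35.4 and 53.7 CPM in NT replicates 1 to 4 and at 40.7, 54.8, 47.1 and 33.8 CPM in TNF replicates 1 to 4. TNF replicate 4, the highest TNF library for most members, was the lowest one for CENPE, and the differences by date were -0.19, 0.75, 0.41 and -0.67 on the log2 scale.

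The spindle genes TPX2, KIF11, KIF2C, KIF4A, NUSAP1, HMMR and DLGAP5 had log2 fold changes from -0.054 to 0.16. They include the motor that pushes spindle poles apart (KIF11) and the microtubule depolymerase KIF2C. KIF4A has a near-identical intronless copy in the genome (KIF4B), between which estimated counts can be split, so its value is less certain. Of the 5 genes of the central spindle and cytokinesis, KIF20A was at -0.13 and KIF23, PRC1, ANLN and ECT2 were between 0.038 and 0.19 on the log2 fold change scale. ANLN, a scaffold of the contractile ring, was higher with TNF at all 4 dates (226 ± 43.8 CPM in NT and 258 ± 43.6 CPM in TNF, SD, n = 4 each). Its adjusted p from edgeR was 0.412, and 0.0564 with the table's dates as a block.

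The group of anaphase and mitotic exit held the largest difference. UBE2C, on chr20:45812576-45816957 (GRCh38, plus strand), encodes the ubiquitin-conjugating enzyme that works with the anaphase-promoting complex to mark cyclin B and securin for destruction. It was at 143, 105, 122 and 204 CPM in NT replicates 1 to 4 and at 183, 177, 157 and 404 CPM in TNF replicates 1 to 4. The TNF library was the higher at every date, by 0.36, 0.76, 0.36 and 0.99 on the log2 scale, but TNF replicates 1 to 3 lay below NT replicate 4, so the groups overlapped. The log2 fold change was 0.68 ± 0.32 (95% interval -0.029 to 1.40) and did not pass the test (adjusted p = 0.159, edgeR).

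The call of UBE2C depended on how the dates were treated and on replicate 4. With the date as a block, UBE2C was higher in TNF, with a log2 fold change of 0.62 ± 0.11 (adjusted p = 0.00479, edgeR). With both libraries of replicate 4 left out it also passed the test, at 0.48 (adjusted p = 0.0108, edgeR). Without TNF replicate 4 alone the log2 fold change was 0.27, the lowest of all alternatives. In the fit with the block, UBE2C and MAD2L1 were the only 2 members called, 1 higher and 1 lower, where 21.3% of all genes were higher and 18.2% lower. With the dates of the single-sample files the block called 0 members, and UBE2C was at 0.62 (adjusted p = 0.181, edgeR). Libraries of a date correlated negatively under those dates, as given above, so that fit does not decide about the call.

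CDC20, which activates the anaphase-promoting complex and lies on chr1:43358981-43363203 (GRCh38, plus strand), was at 324, 304, 340.0 and 490.0 CPM in NT replicates 1 to 4 and at 295, 389.7, 307 and 513 CPM in TNF replicates 1 to 4. As for CCNB1, replicate 4 was the highest of both groups, and the log2 fold change was 0.046 ± 0.20 (95% interval -0.39 to 0.48; adjusted p = 0.904, edgeR). PTTG1 (securin), the inhibitor of separase, had a log2 fold change of 0.11 ± 0.14. It too has close copies in the genome (PTTG2 and PTTG3P) that could share its counts.

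The chromosome proteins MKI67, which coats mitotic chromosomes and is the Ki-67 antigen of pathology, and TOP2A, which untangles sister chromatids, were the only group in which no member had a positive log2 fold change. MKI67 was at 804, 606, 644 and 726 CPM in NT replicates 1 to 4 and at 698, 668, 699.8 and 588 CPM in TNF replicates 1 to 4. Its NT libraries spanned all of its TNF libraries but 1, and the log2 fold change was -0.067 ± 0.10 (95% interval -0.29 to 0.16). TOP2A was at 337 ± 88.9 CPM in NT and 300.1 ± 65.9 CPM in TNF (SD, n = 4 each), with a log2 fold change of -0.17 ± 0.19 (adjusted p = 0.599, edgeR).

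**Figure D2:**
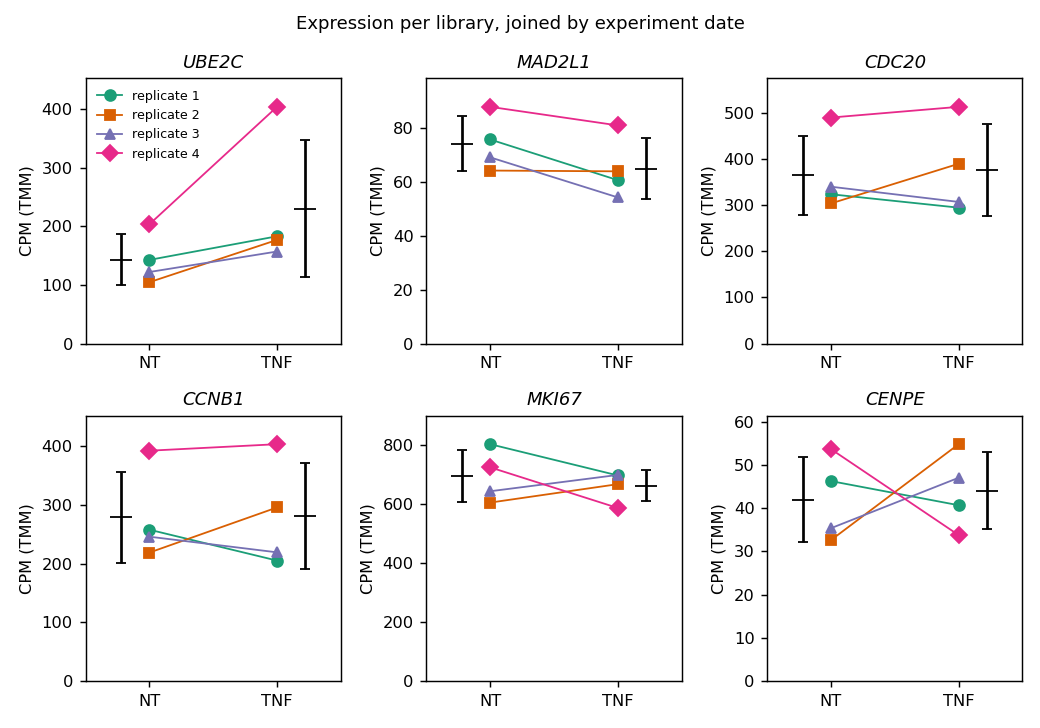
Expression (CPM after TMM scaling) of 6 mitosis genes in each library, with lines joining NT to TNF within a replicate, and with black bars giving the mean and SD (n = 4). UBE2C is higher in TNF along every line and reaches 404 in TNF replicate 4, where no NT library is above 204. CDC20 and CCNB1 are highest in both libraries of replicate 4, and the lines of CENPE and MKI67 cross.

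Levels between members were compared per kilobase of merged exons. In NT, CDC20 was the highest at 181 ± 42.3 CPM per kilobase (SD, n = 4), followed by CCNB1 at 115 ± 31.9, UBE2C at 111 ± 33.5 and TPX2 at 104 ± 20.3 CPM per kilobase. The last 3 of these did not differ beyond their spread. In TNF, UBE2C at 179 ± 90.5 CPM per kilobase stood beside CDC20 at 187 ± 50.0, with overlapping spreads. The order depended on the length used: per kilobase of the canonical transcript UBE2C was at 296 and CDC20 at 228 in TNF, and in NT PTTG1 (158) and PLK1 (144) stood above CCNB1 (137). Per kilobase of merged exons, at the low end were CENPE at 4.23 ± 0.985 and CDC25C at 4.70 ± 1.15 CPM per kilobase in NT, which also did not differ beyond their spread. Counts behind the members ran from 405 in a library for CDC25C to 37632 for MKI67.

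The members differed between experiments in a shared way. In NT, 37 of 40 members had their highest level in replicate 4 and 36 their lowest in replicate 2, where 5340 and 3234 of the 16186 genes tested did. In TNF, 34 of 40 were highest in replicate 4, against 35.7% of all genes. The median deviation of the members from their NT mean was 0.035, -0.31, -0.099 and 0.37 on the log2 scale in NT replicates 1 to 4. It was -0.13, 0.091, -0.11 and 0.39 in TNF replicates 1 to 4, so that both libraries of replicate 4 were high.

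Within dates, as the table of the whole series gives them, the direction of the difference changed. TNF minus NT had a median over the members of -0.17 at replicate 1, where 8 of 40 were higher with TNF, and of 0.40 at replicate 2, where 39 of 40 were higher. At replicates 3 and 4 the medians were -0.015 and 0.033, with 18 and 22 of 40 higher. Only 4 members (UBE2C, AURKB, CDC25B and ANLN) were higher with TNF at all 4 dates and 1 (MAD2L1) was lower at all 4, while 27.4% and 25.9% of all genes were. The date with the large positive difference, replicate 2, is the one whose NT library had the lowest member levels. With the dates of the single-sample files the medians were 0.19, 0.19, -0.47 and 0.40, with 30, 31, 0 and 37 of 40 higher, and 0 members were higher or lower at all 4 dates.

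**Figure D3:**
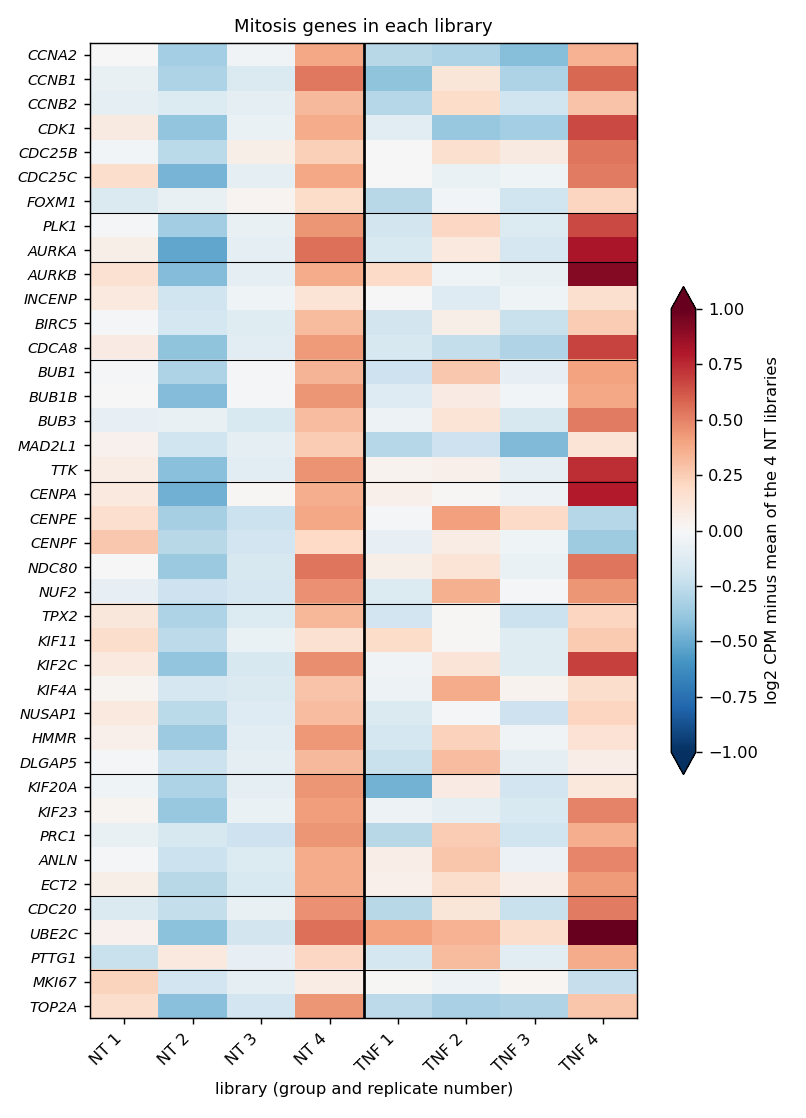
Log2 CPM of each mitosis gene in each library, minus the mean of its 4 NT libraries, with genes ordered by role and thin lines between roles (colour scale cut at 1 below and above 0). NT replicate 4 is red in nearly every row and NT replicate 2 blue. TNF replicate 4 is red in most rows, but MKI67, CENPE and CENPF are blue there.

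This spread set the precision of the test. The SD of log2 CPM between libraries had a median of 0.30 in NT and 0.28 in TNF over the mitosis genes, against 0.17 and 0.20 over all genes tested and 0.13 and 0.14 over 42 genes of DNA replication. The median SE of the log2 fold change was 0.170 in the mitosis genes and 0.135 over all genes, and it was 0.0885 in the mitosis genes with the date as a block. The 3 libraries with a higher share of ribosomal RNA (NT replicates 2 and 4, TNF replicate 4) held the lowest NT level of the members (replicate 2) as well as the highest ones. The part of this RNA in the levels of the members was not tested.

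The members deviated together. With group means removed, the correlation of a member with the median of the other 39 across the 8 libraries was 0.99 for KIF2C and at least 0.75 for 36 of the 40. The exceptions were MKI67 at 0.067, CENPF at 0.24, CENPE at 0.30 and PTTG1 at 0.59. These correlations describe 8 libraries from 4 dates that share the normalization, and they carry no test.

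The 3 exceptions at the low end are also the longest transcripts of the list. In TNF replicate 4 the level of a member against the mean of the other TNF libraries was lower the longer its canonical transcript, with a Pearson correlation of -0.68 (Spearman -0.57) across the 40 genes, which are not independent replicates. Over all genes tested with a length the same correlation was -0.11. The 4 members of 6000 bases or more (MKI67, CENPF, CENPE and BUB3) had a median deviation of -0.28, and the 8 members under 2000 bases one of 0.72, on the log2 scale. In NT replicate 4 the correlation across the 40 members was -0.45 and no member lay below 0. BUB3 followed the shorter members in both libraries. In the other libraries the correlation across the members ran from -0.18 to 0.66, and it was positive at 0.66 in TNF replicate 3, 0.50 in TNF replicate 1 and 0.44 in NT replicate 1. Each library was set against the other 3 of its group, so these values are not independent. The part of transcript length in the level of UBE2C, whose canonical transcript has 777 bases, was not tested.

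**Figure D4:**
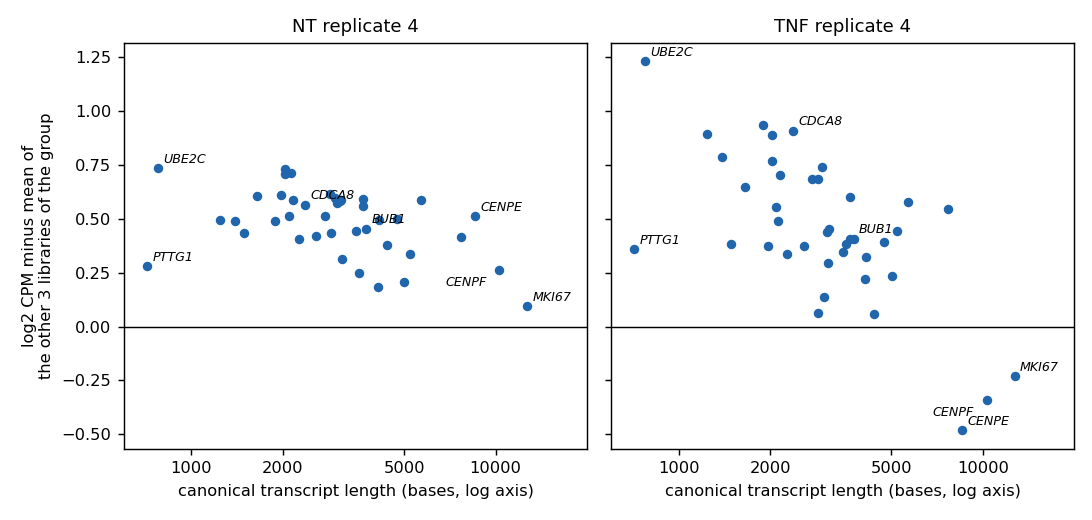
Deviation of each mitosis gene in NT replicate 4 (left) and TNF replicate 4 (right) from the mean of the other 3 libraries of the group (log2 CPM), against the length of its canonical transcript in bases (log axis); points are genes. In TNF replicate 4 the short UBE2C lies highest and the long MKI67, CENPF and CENPE lie below 0, while in NT replicate 4 every point lies above 0.

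The promoters of the members were read for sequence elements, which the rule did not use. Whether these elements have a part in the shared movement between libraries was not tested. RefSeq promoter windows (GRCh38.p14, from 250 bases before to 50 bases after a start) were given for 33 of the 40 members, 43 windows in all, but not for FOXM1, AURKA, BIRC5, BUB3, TTK, TPX2 and UBE2C. A CHR (TTTGAA or TTCGAA, on either strand) was found in 29 of 43 windows (67.4%), in 26 of the 33 genes, against 16.4% of all 35116 windows. A CCAAT box on either strand was found in 74.4% of member windows and 34.6% of all, and both elements in 55.8% and 6.38%. An E2F site (GCGCGAAA or TTTGGCGC on either strand, which can overlap) was found in 6.98% of member windows, those of CDK1 and NUSAP1, and in 1.15% of all. Mitotic genes outside the list had 130 windows, from 96 of the 113 genes described below. Of these windows 42.3% had a CHR, 52.3% a CCAAT box, 24.6% both and 4.62% an E2F site, so the elements are not particular to the members. The 45 windows of DNA replication genes held the elements in other shares: 4.44% had a CHR, 57.8% a CCAAT box and 24.4% an E2F site. A match of letters is not a measured site of binding.

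The stretches below are the bases just upstream of the RefSeq start of 4 members and of 1 replication gene, 5′ to 3′ on the strand of the gene, with matches in capitals. CDC20 and CCNB1 are shown as members with the highest levels per kilobase, CCNB2 and PLK1 as members with both elements close to the start, and MCM6, a replication gene that was lower with TNF, for its E2F sites. They lie on chr1:43358851-43358980 (plus strand), chr5:69167020-69167149 (plus strand), chr15:59105016-59105145 (plus strand), chr16:23678759-23678888 (plus strand) and chr2:135876444-135876603 (minus strand) of GRCh38.p14.
CDC20: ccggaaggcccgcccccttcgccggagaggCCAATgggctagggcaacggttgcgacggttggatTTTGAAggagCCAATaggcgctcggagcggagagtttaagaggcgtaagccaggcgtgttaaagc
CCNB1: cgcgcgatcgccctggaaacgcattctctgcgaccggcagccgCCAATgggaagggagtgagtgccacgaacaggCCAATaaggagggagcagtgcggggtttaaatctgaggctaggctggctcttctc
CCNB2: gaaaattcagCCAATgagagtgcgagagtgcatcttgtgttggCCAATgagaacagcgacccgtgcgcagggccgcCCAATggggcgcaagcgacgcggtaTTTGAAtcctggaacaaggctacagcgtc
PLK1: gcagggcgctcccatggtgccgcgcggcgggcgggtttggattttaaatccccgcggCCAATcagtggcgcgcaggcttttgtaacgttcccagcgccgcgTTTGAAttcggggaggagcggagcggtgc
MCM6: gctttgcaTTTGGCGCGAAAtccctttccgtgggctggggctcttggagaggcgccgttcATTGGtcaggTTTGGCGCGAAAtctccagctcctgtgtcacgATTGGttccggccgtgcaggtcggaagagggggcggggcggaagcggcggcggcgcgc
CDC20, CCNB2 and PLK1 hold a CHR and at least 1 CCAAT box. CCNB1 holds CCAAT boxes without a CHR in these letters. MCM6 holds no CHR but E2F sites, in which the E2F letters of both forms overlap, and CCAAT boxes read on the other strand.

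Mitotic genes outside the list were compared in the same fit. Of 113 such genes, 3 were higher and 2 were lower (6 and 12 with the date as a block, 2 and 1 with the block and the single-sample dates), where 14.5% and 9.9% of all genes were (21.3% and 18.2% with the block). Their median log2 fold change was -0.041. In the condensin (8 genes), cohesin and separase (12), anaphase-promoting complex (17) and outer kinetochore (16) lists, 0 genes passed the test. The lowest p of these were those of ANAPC1, the scaffold subunit of the anaphase-promoting complex (log2 fold change -0.21, adjusted p = 0.0508, edgeR), and its small subunit ANAPC13 (0.35, adjusted p = 0.0933). Both passed with the date as a block (0.0086 and 0.00201). Neither did with the dates of the single-sample files (0.150 and 0.195). ANAPC1 was called in 10 of 20 alternatives, DESeq2 (0.017) and all other scalings included, and ANAPC13 in 2. SGO1, the protector of centromeric cohesin, and DSN1 of the outer kinetochore had log2 fold changes of 0.18 (adjusted p = 0.136) and -0.20 (adjusted p = 0.129, edgeR). DSN1 passed with the table's dates as a block (0.047) and with library totals (0.0459).

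The 3 higher genes were CIT, CKAP2L and E2F7. CIT, the citron kinase of the midbody, was at 73.3, 57.7, 60.4 and 68.8 CPM in NT replicates 1 to 4 and at 139, 137, 139 and 114 CPM in TNF replicates 1 to 4, with no overlap. Its log2 fold change was 1.02 ± 0.098 (adjusted p = 3.3e-05, edgeR). CKAP2L, a spindle protein, was at 56.6 to 88.7 CPM in NT and 134 to 161 CPM in TNF (log2 fold change 0.97 ± 0.13, adjusted p = 3.0e-04, edgeR). E2F7 and E2F8 are repressors of the E2F family, and E2F7 was higher at 0.37 ± 0.089 while E2F8 was lower at -0.56 ± 0.13 (adjusted p = 0.0117 and 0.0108, edgeR). CENPH of the inner kinetochore was the other lower gene (-0.28 ± 0.085, adjusted p = 0.035). The calls of E2F7 and CENPH ended with the block and the single-sample dates (adjusted p = 0.0569 and 0.103, edgeR). The call of E2F8 ended without the 3 libraries with more ribosomal RNA (adjusted p = 0.0753), and that of CENPH on leaving out any 1 of 6 libraries (0.0675 to 0.0962).

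The genes of DNA replication gave other counts than the mitosis genes in the same libraries. Of 42, 16 were lower and 0 were higher with TNF, against the background of 9.9% lower. With the date as a block 28 were lower, where 18.2% of all genes were. With the block and the single-sample dates 6 were lower, where 801 of 16186 genes were. In the fit without a block 39 of 42 log2 fold changes were negative, with a median of -0.23. TYMS (thymidylate synthase) was at 258, 265, 283 and 277 CPM in NT replicates 1 to 4 and at 186, 175, 189 and 187 CPM in TNF replicates 1 to 4, with no overlap (log2 fold change -0.56 ± 0.063, adjusted p = 1.1e-04, edgeR). CHAF1B, of the chromatin assembly factor, fell by a log2 fold change of 0.58, MCM6, of the replicative helicase, by 0.52 and RFC3, of the clamp loader, by 0.49 (adjusted p = 0.023, 0.041 and 0.00508, edgeR). The calls of MCM6 and CHAF1B ended on leaving out some single libraries (adjusted p up to 0.108 and 0.0726), and that of MCM6 with no filter on low counts (0.106). The median SE of the replication genes was 0.0935 against 0.170 in the mitosis genes, and whether the lists differed was not tested.

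**Figure D5:**
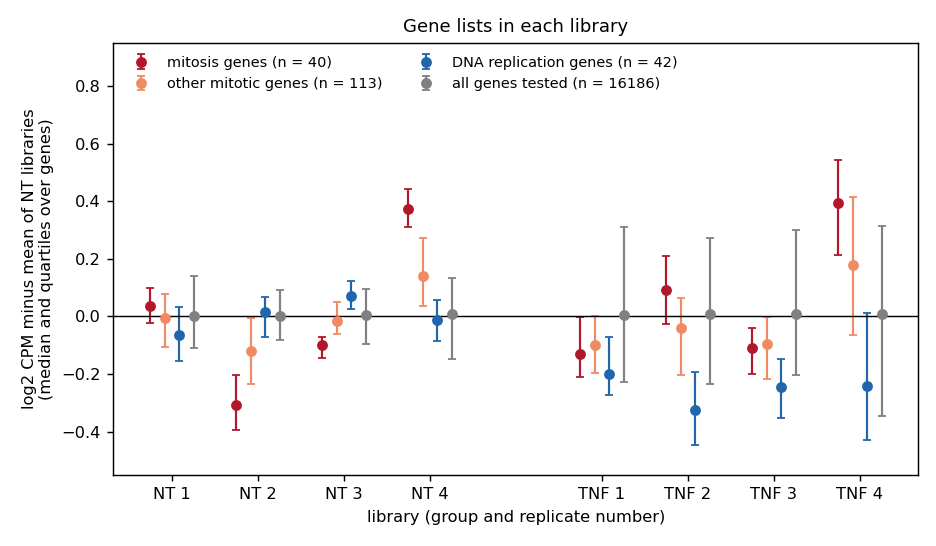
Median (point) and quartiles (bars) over the genes of each list of the log2 CPM in a library minus the mean of the 4 NT libraries. The mitosis genes are highest in replicate 4 of both groups, at 0.37 and 0.39. The replication genes lie between -0.20 and -0.32 in all 4 TNF libraries.

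Upstream of both lists are the regulators of G1. Of 21 tested, 3 were higher and 2 were lower. These shares, 14.3% and 9.52%, are close to those of all genes (14.5% and 9.9%), so the counts are no result about the list. With the table's dates as a block 7 were higher and 2 lower, where 21.3% and 18.2% of all genes were. Whether these blocked counts differ from that background was not tested. CDKN1A (p21), which inhibits cyclin-dependent kinases, was at 77.1, 88.9, 84.8 and 115 CPM in NT replicates 1 to 4 and at 199.7, 204, 189 and 289 CPM in TNF replicates 1 to 4, with no overlap (log2 fold change 1.27 ± 0.16, adjusted p = 2.2e-04, edgeR). CCND1 (cyclin D1) rose as well, from 391 to 606 CPM to 707 to 898 CPM (log2 fold change 0.74 ± 0.14, adjusted p = 0.00287, edgeR). The inhibitor CDKN2D was higher (0.47), and CDKN2C (-0.50) and TFDP1, the partner of E2F proteins (-0.26), were lower, with adjusted p of 0.0451, 0.0369 and 0.035 from edgeR. These last 3 calls were made in 9, 12 and 13 of 20 alternatives and ended, among others, on leaving out some single libraries (adjusted p up to 0.126, 0.0949 and 0.105).

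Of the factors that drive the mitosis genes, MYBL2 was at 346, 309.8, 407 and 334 CPM in NT replicates 1 to 4 and at 305, 251, 300.3 and 316 CPM in TNF replicates 1 to 4. Its log2 fold change of -0.25 ± 0.10 did not pass the test (adjusted p = 0.101, edgeR), but did with the date as a block (-0.25, adjusted p = 0.00975), though not with the dates of the single-sample files (adjusted p = 0.261, edgeR). It also passed with upper-quartile factors (adjusted p = 0.0449, edgeR) and library totals (adjusted p = 0.0331, edgeR), scalings that lowered the median of all genes. MYBL2 was called in 4 of 20 alternatives. E2F1 was at -0.090 ± 0.12 (adjusted p = 0.649, edgeR), and FOXM1 is given above. Unlike 37 of the 40 mitosis genes in NT, MYBL2 had its highest NT level in replicate 3.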

How the data were processed

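The authors extracted RNA from NT and TNF-treated A375 cells, made stranded mRNA libraries, aligned reads with bowtie2 to the GRCh38 transcriptome and estimated counts with RSEM 1.2.25. The deposited values are these expected counts per gene, without normalization. For bowtie2, the version and read filters were not given in the sources used here. RSEM can split counts between near-identical genes.

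Rounding the expected counts to integers changed their sum by 0.00585%. Of 60710 genes, 28855 were at 0 in all libraries, and edgeR's low-count filter (minimum 10, total 15) kept 16186. After TMM scaling, edgeR 4.0.16 was used (robust quasi-likelihood, 1 term for treatment), with p-values adjusted by Benjamini-Hochberg across the genes kept (threshold 0.05). Log2 CPM had a prior count of 2. DESeq2 1.42.0 and limma 3.58.1 (voom), in R 4.3.3, were alternatives, as were other scalings, filters, thresholds and left-out libraries. Total counts ran from 30989787 to 44373296 per library. No pair of replicates was close enough to be 1 library (chi-square over its degrees of freedom 12.0 or more).

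The replicate number is the experiment date in the sample title. Same-date libraries deviated from their group means in the same direction (correlations 0.35, 0.17, 0.24 and 0.46 across genes), and the titles share the date, so the libraries are paired in that table. The study names no block, so the reported fit is unpaired, and a fit blocked by date is an alternative given where it changed a call. The files of single NT samples hold NT libraries of other dates than their titles (0 of 4 match, against 4 of 4 for TNF), and the numbers follow the columns of the table of the whole series. Under the dates of the single-sample files the correlations were -0.071, -0.099, -0.40 and -0.31. A fit blocked by those dates was added after seeing the data, and with these negative correlations it does not decide about the calls lost in it.

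The mitosis genes and all other lists were chosen with earlier results of these data known. All members are named by role, with values in every library for the 3 with the highest levels per kilobase. Of the other lists, up to 4 genes past the threshold with the largest change are named, or up to 2 with the smallest p where none passed, besides the TNF check and CDKN1A, CCND1, E2F1 and MYBL2. MAD2L1, CCNA2, CENPE, MKI67, CDC25B, ANLN, AURKB and TFDP1 were singled out after their values were seen. Lists are described by counts and medians, with no set test. Positions and lengths are those of GENCODE release 44 on GRCh38, not the annotation used for the counts, and promoter windows are from RefSeq (GRCh38.p14).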

Additional observations from a re-analysis of the deposited data

Results flagged for a closer look

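In 15 of 132 groups of 4 libraries examined, 1 library lay far from the other 3 by Dixon's test, where about 6.6 would by chance (1 in 20). Of these, 8 were mitosis genes, which also made up most of the genes examined, so their share is no result about the list. All 8 were in replicate 4, as were most of the flagged values of genes outside the list. In NT replicate 4 the log2 CPM was 6.77 for CCNB2 (others 6.30 to 6.35) and 7.64 for BUB3 (others 7.18 to 7.25). TNF replicate 4 stood at 8.66 for UBE2C (others 7.30 to 7.52), 8.64 for TOP2A (others 8.03 to 8.10), 7.25 for KIF23 (others 6.60 to 6.70), 6.92 for CDCA8 (others 5.94 to 6.08), 5.65 for CENPA (others 4.81 to 4.91) and 4.46 for CDC25C (others 3.87 to 3.94). All 8 of these values were above the other libraries of their group.

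Among genes outside the list, TNF replicate 4 was high for CKAP2L at 7.33 (others 7.06 to 7.08) and ANAPC13 at 6.57 (others 5.97 to 6.03) and low for CIT at 6.84 (others 7.10 to 7.12). NT replicate 4 was high for CDKN2C at 6.45 (others 5.95 to 6.02) and for BIRC3 at 1.76 (others 0.13 to 0.30). NT replicate 2 was high for E2F8 at 3.83 (others 3.53) and low for ANAPC1 at 6.21 (others 6.37 to 6.40). With replicate 4 left out in both groups, CKAP2L and CIT were still higher with TNF, and UBE2C was called.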

How the results depend on the processing

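Of the 40 mitosis genes, 0 were called by edgeR with all 8 libraries, and the count stayed 0 in each direction with DESeq2, limma voom, other scalings, other filters on low counts, stricter thresholds, the single-sample files and every fit that left out 1 library. With the experiment date as a replicate block, 1 member was higher and 1 lower. With the block and the dates of the single-sample files, an alternative chosen after seeing the data, both counts were 0. With replicate 4 left out in both groups, 1 was higher. On dropping the 3 libraries with a higher ribosomal share, 1 was higher (UBE2C, 0.38, adjusted p = 0.0219, edgeR) and 1 lower (CCNA2). The cause of these changes was not tested, and fits that left libraries out had fewer samples. The range of adjusted p over the alternatives was 0.00479 to 0.419 for UBE2C and 0.0344 to 0.604 for MAD2L1.

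Of the other counts, lower genes among the 113 other mitotic genes (2) became 4 in DESeq2, 6 after upper-quartile scaling, 11 by library totals, 12 in the replicate block (1 with the single-sample dates), 5 when replicate 4 was dropped, 7 when the libraries with a higher ribosomal share were dropped, 0 at an adjusted p under 0.01, 0 at an absolute log2 fold change above 1 and 1 to 9 on leaving out 1 library. Higher ones (3) became 6 with the block, 5 when replicate 4 was dropped and 1 above a log2 fold change of 1. Lower replication genes (16) became 28 with the block (6 with the single-sample dates), 4 at 0.01, 0 above a log2 fold change of 1 and 7 (without NT replicate 3) to 18 (without TNF replicate 4) on leaving out 1 library. Over all genes, 2345 were higher and 1603 lower. Library totals gave 1925 higher and 2514 lower, which turns the split, and the block gave 3451 and 2946 (1557 and 801 with the single-sample dates). The 0.01 threshold gave 1548 and 772, and a log2 fold change above 1 gave 909 and 387.

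The sign of the log2 fold change also depended on the setting in members near 0. When libraries were left out it changed in members further from 0 as well, among them AURKB, CENPA, TTK, KIF2C, AURKA and PLK1. It also changed in E2F1, which is no member. The sign changed in CCNB2 (-0.0027) with DESeq2, in CCNB1 (-0.0051), CCNB2 (-0.0029) and CDCA8 (-0.0093) with limma voom, in CCNB2 (-0.0028) with RLE factors, in CCNB2 (-0.0065) with no filter on low counts, in CCNB1 (-0.0055), CCNB2 (-0.0022) and CDCA8 (-0.0060) with the replicate block, and in CCNB1 (-0.0023), CCNB2 (-0.0014) and CDCA8 (-0.0045) with that block and the single-sample dates. Upper-quartile factors changed it in CCNB1 (-0.050), CCNB2 (-0.055), CDCA8 (-0.041), BUB1B (-0.00035), HMMR (-0.035), DLGAP5 (-0.041), KIF23 (-0.014), PRC1 (-0.022) and CDC20 (-0.014). Library totals changed it in CCNB1 (-0.081), CCNB2 (-0.083), CDC25C (-5.3e-05), CDCA8 (-0.071), BUB1B (-0.028), CENPE (-0.0087), KIF11 (-0.0073), HMMR (-0.062), DLGAP5 (-0.068), KIF23 (-0.042), PRC1 (-0.050) and CDC20 (-0.044). These scalings moved the median of all genes by -0.058 and -0.083. On dropping replicate 4 it changed in CCNB1 (-0.012), CDCA8 (-0.11), CENPF (0.022) and MKI67 (0.0017), and on dropping the libraries with a higher ribosomal share in CCNB1 (-0.071), CDC25C (-0.088), AURKA (-0.059), AURKB (-0.0088), CDCA8 (-0.23), BUB1B (-0.016), CENPA (-0.053), KIF11 (-0.031), KIF23 (-0.082), CDC20 (-0.0070) and E2F1 (0.059).

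On leaving out 1 library the log2 fold change ran over 0 in 27 members: CCNB1 -0.21 to 0.21, CCNB2 -0.094 to 0.12, CDK1 -0.30 to 0.12, INCENP -0.068 to 0.034, CDC20 -0.14 to 0.21, MKI67 -0.13 to 0.0092, CDC25C -0.069 to 0.22, CDCA8 -0.26 to 0.17, BUB1B -0.070 to 0.22, CENPE -0.052 to 0.20, KIF11 -0.0026 to 0.14, HMMR -0.090 to 0.18, DLGAP5 -0.091 to 0.13, KIF23 -0.13 to 0.20, PRC1 -0.077 to 0.20, BIRC5 -0.12 to 0.086, TPX2 -0.15 to 0.058, NUSAP1 -0.14 to 0.055, KIF20A -0.23 to 0.034, PLK1 -0.056 to 0.31, AURKA -0.12 to 0.36, AURKB -9.1e-05 to 0.40, BUB1 -0.0093 to 0.21, BUB3 -0.029 to 0.23, TTK -0.034 to 0.35, CENPA -0.023 to 0.34 and KIF2C -0.037 to 0.33. Among all 66 named genes, leaving aside sign changes, 45 values lost and 23 gained a call over the alternatives. With 4 libraries a group, the median SD was 0.30 on the log2 scale in NT. In the fit without a block the intervals of 8 members reached beyond 1.5-fold, so differences of that size were not excluded in them.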
